A study of Mus musculus with 3 samples.

Results

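Fos, Fosb, Jun, Junb, Jund, Egr1, Egr2, Egr3, Ier2 and Atf3 are immediate early genes, taken here by symbol, and all 10 were found among the 32285 genes counted. They were described in thymus cells with at least 500 detected genes and under 10% mitochondrial transcripts. Immediate early genes are transcribed within minutes of a stimulus without new protein synthesis, largely through ERK, serum response factor and CREB acting on waiting promoters. In the thymus, engagement of the T cell receptor during positive selection raises Egr1, Egr2 and Egr3, zinc finger factors that relay receptor strength, while Fos and Jun proteins pair into the AP-1 factor. The same genes also respond to warming, shear and enzymes while a tissue is made into a suspension, together with heat shock genes.

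The thymus cells were from female mice aged 4 weeks whose germline Trp53, the gene of the p53 transcription factor, was altered, on a background labelled 50% BALB/C and 50% C57BL6. There were 3 libraries with 1 genotype each, p53+/-, p53 AD/- and p53-/-, and values below follow that order unless a genotype is named. What the AD allele changes is not explained in the labels (the title of the series mentions p53 dimers), and the design text calls the first group WT although its sample label is p53+/-. Nothing says that a library held more than 1 animal. Genotype and library therefore cannot be told apart, no test was made, and all intervals are 95% intervals for counting error only.

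RefSeq start sites on GRCm38.p6 were matched for 7 of the 10 members. Egr1, Egr3 and Ier2 had no entry. The 250 bases before the start were searched on both strands for the serum response element core (CArG box), for TGACGTCA (the cyclic AMP response element, CRE), for its part TGACG, for the AP-1 site TGANTCA and for the EGR site GCGNGGGCG. Those of Fos, Junb and Egr2 are shown, with each motif match in capitals. They are a pair of AP-1 subunits with unlike stage ratios and an EGR gene higher in selected than in quiescent cells.
Fos (chr12:85473640-85473889, plus strand): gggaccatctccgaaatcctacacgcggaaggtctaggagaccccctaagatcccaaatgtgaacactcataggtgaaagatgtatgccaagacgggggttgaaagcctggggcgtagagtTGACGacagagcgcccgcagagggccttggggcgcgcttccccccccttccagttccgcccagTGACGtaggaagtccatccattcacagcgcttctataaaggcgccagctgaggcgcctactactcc
Junb (chr8:84978749-84978998, minus strand): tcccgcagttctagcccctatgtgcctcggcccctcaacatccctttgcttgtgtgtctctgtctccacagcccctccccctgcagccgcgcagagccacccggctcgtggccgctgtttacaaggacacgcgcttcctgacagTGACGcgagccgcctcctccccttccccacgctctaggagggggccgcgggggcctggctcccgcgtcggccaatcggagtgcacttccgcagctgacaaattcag
Egr2 (chr10:67537619-67537868, plus strand): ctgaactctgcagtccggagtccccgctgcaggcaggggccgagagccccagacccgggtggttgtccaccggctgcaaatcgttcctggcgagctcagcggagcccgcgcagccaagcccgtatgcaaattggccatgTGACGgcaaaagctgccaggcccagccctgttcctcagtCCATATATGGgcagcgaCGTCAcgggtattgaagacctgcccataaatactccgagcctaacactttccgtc
The Fos window held TGACG from 129 to 125 and from 66 to 62 bases before the start. The Junb window held TGACG from 106 to 102 bases before it. The Egr2 window held a CArG box from 72 to 63 bases before the start, with TGACG from 111 to 107 and its reverse complement CGTCA from 55 to 51. This Egr2 start, the third of 5 in the table, was chosen after its matches were seen, and 4 of the 5 windows held a CArG box. The windows of starts 3, 4 and 5 overlap and share this box. Fosb held TGACG and GCGNGGGCG and Atf3 held CGTCA, while the Jun window held none of the motifs searched. The Jund window of RefSeq (chr8:70697489-70697738) held none either, but it does not adjoin the GENCODE start of Jund (70698949). Of 32851 such windows of all genes, 1.47% held a CArG box, 1.55% TGACGTCA, 6.75% TGANTCA, 17.8% TGACG and 4.70% GCGNGGGCG, so a TGACG match is common.

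The libraries held 8150, 6171 and 9543 cells after filtering, with medians of 3239, 2484 and 3062 UMIs (unique molecular identifiers, which stand for counted transcripts) per cell. Trp53 was counted in every library, at 59.1, 71.9 and 45.4 CPM (counts of a gene in every 1000000 UMIs) in quiescent cells. Where the alleles alter Trp53 is not stated, so these counts do not check the labels. Clustering without the members and the dissociation genes gave 5 thymocyte classes named from markers: quiescent DP-like (CD4+ CD8+ cells awaiting selection, 4591, 3500 and 4643 cells), selected DP and early SP-like (receptor-signalled cells, 1790, 1335 and 2101), mature SP-like (458, 390 and 639), cycling (1057, 751 and 1680) and DN-like (the earliest thymocytes, 100, 61 and 161). The quiescent class was made of different clusters in each library: cluster 0 held 6.82%, 51.3% and 2.56% of it, cluster 3 51.5%, 16.9% and 24.6%, and cluster 6 10.5%, 2.57% and 64.0%. The selected class was spread alike over clusters 4, 5, 8 and 12. In a finer clustering (Leiden resolution 2) it was less alike. A selected cluster led by Cd5, Tox and Ikzf2 held 253, 254 and 95 cells there. Another, with Junb among its leading genes, held 65, 39 and 216. Malat1, a nuclear RNA, made up a median of 6.05%, 3.74% and 7.35% of UMIs in quiescent cells and 5.08%, 3.88% and 6.09% in selected cells, and 1.02%, 19.5% and 0.711% of quiescent cells had under 1% of it. Doublet calling marked 1 barcode in all, so doublets remain, and 14 to 25 barcodes were shared by any pair of libraries.

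Every member was counted in thymocytes of each library, Atf3 at no more than 3 UMIs in quiescent cells. Over all filtered cells, Jund gave 62292 UMIs, Junb 42424, Ier2 9163, Fos 8737, Jun 7130, Egr1 5668, Fosb 1864, Egr3 584, Egr2 505 and Atf3 301. These totals set the precision for each gene and were not used to rank the genes. Genes on the opposite strand overlap 4 members, and it is not stated whether reads were counted by strand. Junos (37 UMIs) overlaps Jun and Gm11175 (68 UMIs) overlaps Jund. Prdx2, a peroxiredoxin with 38604 UMIs, shares 351 bases with Junb, and its level in selected cells was 337, 423 and 321 CPM. Its part in the Junb counts was not tested.

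**Figure D1:**
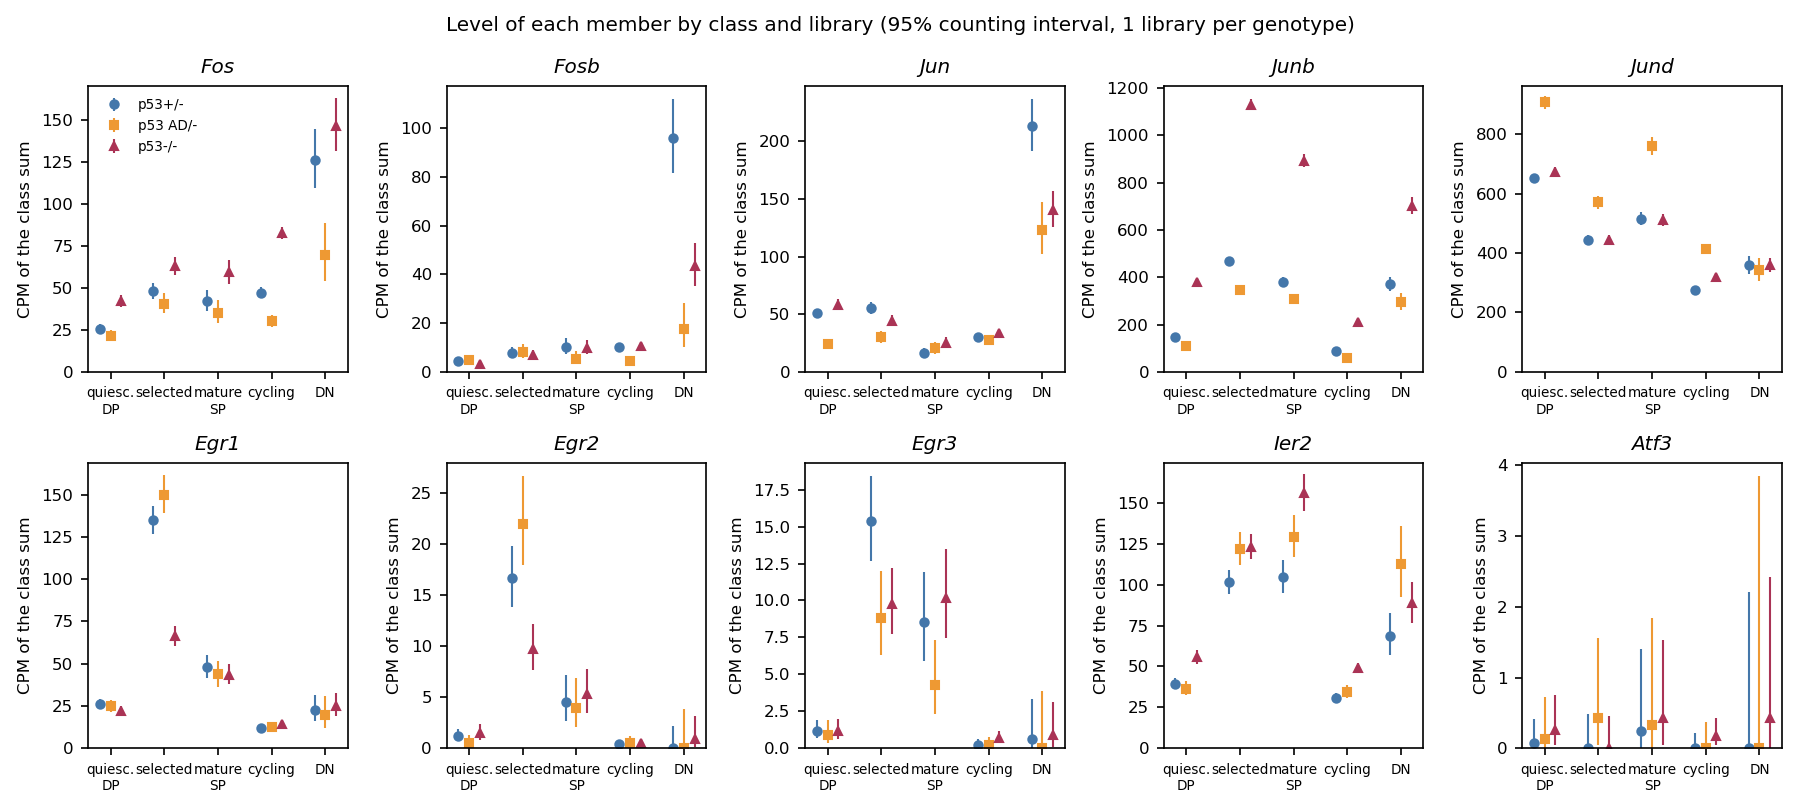
Level of each member in CPM (class sums) in 5 thymocyte classes, as points for the 3 libraries with bars for 95% counting intervals. Egr1 and Egr2 peak in the selected class in each library, Egr3 does so in p53+/- and p53 AD/-, Fosb and Jun in the DN-like class, and Junb is highest in p53-/- in every class.

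Among the thymocyte classes, Egr1 and Egr2 were highest in the selected class in each library, and Egr3 was in all but p53-/-. Egr1 (ENSMUSG00000038418, chromosome 18, 34859823 to 34864984, GRCm38) stood at 26.0 (23.4 to 28.9), 25.0 (21.6 to 28.8) and 22.3 CPM (19.7 to 25.2) in quiescent cells. In selected cells it stood at 135 (127 to 144), 150 (139 to 161) and 66.2 CPM (60.6 to 72.1). All 3 libraries were thus higher in the selected class, and the rise was smaller in p53-/-: the log2 ratio of selected over quiescent cells was 2.38 (2.20 to 2.56), 2.58 (2.35 to 2.82) and 1.57 (1.35 to 1.79). Mature SP-like cells had 48.0, 43.7 and 43.5 CPM of Egr1 and cycling cells 12.1, 12.6 and 14.5. The order of the classes for Egr1 was selected, mature, then quiescent and DN-like, which did not differ beyond their intervals, then cycling.

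Egr2 (chromosome 10, 67535475 to 67542188) and Egr3 are induced by receptor signalling and help positive selection and natural killer T cell development. Egr2 was sparse in the thymocyte classes other than the selected class. It gave 16, 4 and 17 UMIs in all quiescent cells and 126, 102 and 78 in selected cells, or 16.7 (13.9 to 19.9), 21.99 (17.9 to 26.7) and 9.78 CPM (7.73 to 12.2). The log2 ratio was 3.82 (3.06 to 4.67), 5.39 (3.99 to 7.30) and 2.74 (1.97 to 3.59). Egr3 (chromosome 14, 70077203 to 70082614) gave 16, 7 and 14 UMIs in quiescent cells and 116, 41 and 78 in selected cells. Its log2 ratio was 3.70 (2.94 to 4.55), 3.27 (2.10 to 4.67) and 3.02 (2.19 to 3.96). Of the 3 libraries, p53 AD/- was highest for Egr2 and lowest for Egr3 in selected cells, where Egr3 stood at 15.4, 8.84 and 9.78 CPM. Mature SP-like cells had 8.54, 4.30 and 10.1 CPM of Egr3, so the p53-/- value was no lower there than in selected cells, and 4.52, 3.97 and 5.28 CPM of Egr2. In DN-like cells Egr2 gave 0, 0 and 2 UMIs, and 0 UMIs still allow 1.80 CPM of Egr2 in p53+/- and 3.13 CPM in p53 AD/-.

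Junb and Ier2 rose with selection as well, Junb by 3.15, 3.19 and 2.98 times and Ier2 by 2.57, 3.33 and 2.21 times. Junb (chromosome 8, 84974484 to 84978718), an AP-1 subunit that also restrains Jun, stood at 149, 108 and 380 CPM in quiescent cells and at 471, 345 and 1131 CPM in selected cells, a log2 ratio of 1.66, 1.67 and 1.57. Ier2 (chromosome 8, 84661331 to 84662852), a nuclear protein induced with the Fos family, went from 39.5, 36.5 and 55.7 CPM to 102, 122 and 123 CPM. Its log2 ratio was 1.36 (1.20 to 1.52), 1.74 (1.53 to 1.95) and 1.14 in p53-/-. Both stayed high in mature SP-like cells, with Junb at 380, 308 and 894 CPM and Ier2 at 105, 129 and 156 CPM.

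The other AP-1 subunits did not all follow selection in the same way. Fos (chromosome 12, 85473890 to 85477273) went from 25.6, 21.6 and 42.1 CPM in quiescent cells to 48.0, 40.7 and 62.9 CPM in selected cells, under 2-fold in each library (log2 0.91, 0.92 and 0.58). Jun (chromosome 4, 95049034 to 95052222) went from 50.9, 24.3 and 58.3 to 55.3, 29.97 and 44.1 CPM, a log2 ratio of 0.12 (-0.06 to 0.30), 0.30 (-0.03 to 0.63) and -0.40 (-0.59 to -0.21). The direction of Jun thus differed between the libraries, with the first pair of intervals including 0. Jund (chromosome 8, 70698949 to 70700616), the AP-1 subunit that is made without a stimulus, was lower in selected cells in every library, at 445, 571 and 445 CPM against 654, 909 and 675, with log2 ratios of -0.56, -0.67 and -0.60. Fosb (chromosome 7, 19302696 to 19310051) was sparse in both classes, at 4.36, 4.84 and 3.09 CPM in quiescent and 7.81, 8.19 and 6.89 CPM in selected cells. It was thus higher in selected cells of each library, with a log2 ratio of 0.84 in p53+/-. Only in p53-/- was it past 2-fold, from 36 UMIs in quiescent and 55 in selected cells.

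Fos, Fosb and Jun were instead highest in the DN-like class, the smallest of the 5. Fosb stood there at 95.9 (81.6 to 112), 17.7 (10.3 to 28.4) and 43.4 CPM (35.3 to 52.8), from 160, 17 and 100 UMIs. Jun stood at 213, 123 and 141 CPM and Fos at 126, 69.9 and 147 CPM. The log2 ratio over quiescent cells was 2.31, 1.70 and 1.80 for Fos, 4.46, 1.87 and 3.81 for Fosb, and 2.07, 2.34 and 1.27 for Jun. Junb (372, 296 and 703 CPM) and Ier2 (68.9, 113 and 88.6 CPM) were also higher in DN-like than in quiescent cells, though not highest there. Egr1 was not raised in the same cells (22.8, 19.8 and 25.2 CPM). The DN-like class rests on 61 to 161 cells and its cells were deeper (medians of 12906, 12182 and 11659 UMIs), as were cycling cells, in which Jun stood at 30.6, 27.4 and 33.6 CPM and Fos at 47.1, 30.2 and 82.6 CPM.

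Counting as higher a gene with at least 2-fold more CPM and at least 100 UMIs over the pair, 5 of 9 such members were higher in selected than in quiescent cells of p53+/- (Junb, Egr1, Egr2, Egr3 and Ier2), 4 of 7 in p53 AD/- (without Egr3) and 3 of 6 in p53-/- (without Egr2 and Egr3). Of all genes tested, 5.03%, 4.71% and 5.4% were higher by that rule. The members missing from the later counts had too few UMIs, not a smaller ratio. Where Egr2 and Egr3 were counted, they reached 100 UMIs mostly through selected cells. Egr2 gave 126 UMIs there against 16 in p53+/- and 102 against 4 in p53 AD/-, and Egr3 gave 116 against 16 in p53+/-. Reaching the minimum thus nearly fixed their call as higher. The count of 3 of 6 in p53-/- does not include them. The members' median log2 ratio was 1.36, 1.67 and 0.86, where that of all genes was -0.09, -0.12 and -0.12. These medians cover unlike sets of 9, 7 and 6 members, the last without Egr2, Egr3 and Fosb, so they do not compare the libraries. The classes were cut from the same cells, though without the members, so these contrasts are descriptions.

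**Figure D2:**
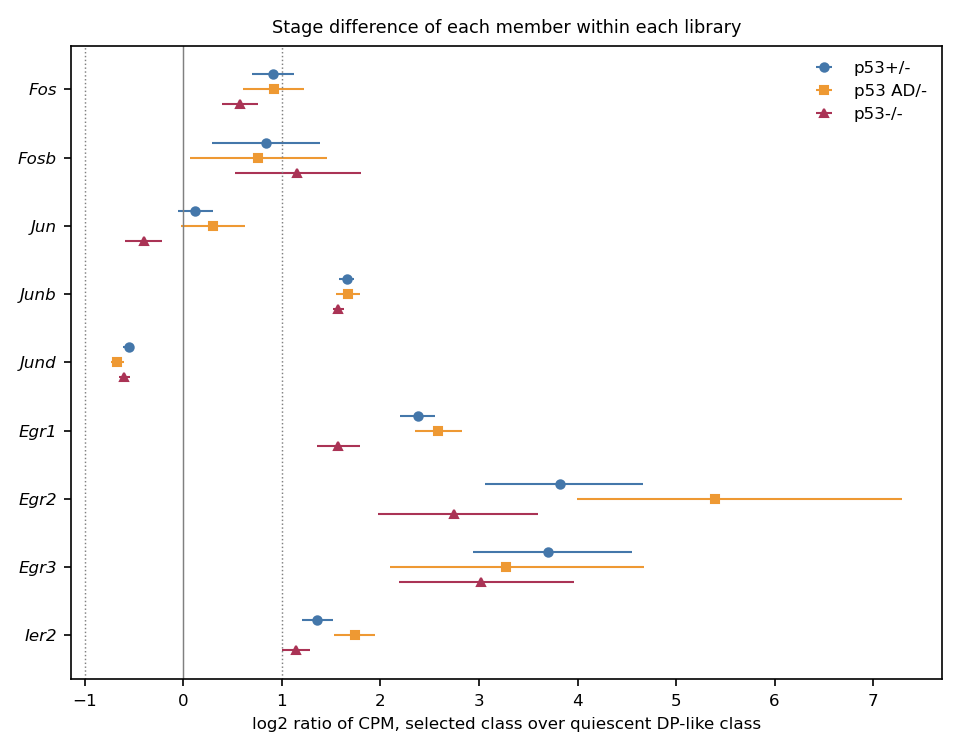
Log2 ratio of selected over quiescent CPM for 9 members in the 3 libraries, with 95% counting intervals and dotted lines at 2-fold. Egr1, Egr2, Egr3, Junb and Ier2 lie above 2-fold in each library, Fos below it, and Jund lies below 0. Fosb lies above 2-fold in p53-/- only.

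The companion lists, which hold no member, were counted along the same contrast, though the classes themselves favour the receptor list. The share of all genes higher by this rule, to be set beside each list, was 5.03%, 4.71% and 5.4%. Of the T cell receptor response list, 19 of 31 measured genes were at least 2-fold higher in selected cells of p53+/-, 21 of 29 in p53 AD/- and 18 of 32 in p53-/-, with medians of 1.92, 1.98 and 1.42. Of the dissociation response list, 4 of 26, 9 of 25 and 4 of 26 were higher, with medians of 0.23, 0.25 and 0.10. Among the receptor genes, Itm2a, an activation-linked membrane protein, had log2 ratios of 5.36, 5.55 and 5.61. Most markers that named the selected class, such as Cd5, Cd69, Itm2a and Nr4a1, are on the receptor list. The dissociation genes were left out of the clustering. The difference between the counts of these lists was thus partly built in, and it does not compare the responses. Nab2, the EGR-induced corepressor that binds EGR proteins, rose with log2 ratios of 4.51, 3.94 and 3.84. It was the first by size on the list of other AP-1 and immediate early genes, where 5 of 16, 4 of 12 and 5 of 18 measured genes were higher. On the ERK and serum response list 1 of 20, 2 of 18 and 2 of 20 were higher, with Crem, a CREB family factor, at 1.43, 1.52 and 1.39. The dissociation genes that led were Hsph1, a heat shock chaperone (1.77, 1.51 and 1.59), and in p53+/- Dusp1, a MAP kinase phosphatase (1.32), while Dnajb4 fell by 1.22 there.

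To set receptor signal beside dissociation within the selected class, cells were thinned to 1500 UMIs and sorted by whether they held a UMI of a receptor sentinel (Nr4a1, Nr4a3 or Cd69) or of a heat shock sentinel (Hspa1a, Hspa1b or Dnajb1). Cells under 1500 UMIs, 49, 61 and 71 of the class, were left out. Receptor sentinels alone marked 405, 276 and 557 cells (23.3%, 21.7% and 27.4%) and heat shock sentinels alone 135, 99 and 154 (7.75%, 7.77% and 7.59%). Hspa1a and Hspa1b gave 0 to 3 UMIs per class and library, so the heat shock cells were those with Dnajb1, a constitutive as well as inducible chaperone. Dnajb1 itself stood at 82.4, 93.4 and 105 CPM in quiescent and 67.6, 71.1 and 74.8 CPM in selected cells, and was thus not raised with selection.

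Egr1 was higher in cells with a receptor sentinel alone, at 275 (235 to 320), 295 (245 to 352) and 99.3 CPM (79.1 to 123), than in cells with neither, at 96.7, 116 and 45.7 CPM. The log2 ratio over neither was 1.51 (1.19 to 1.83), 1.35 (0.99 to 1.70) and 1.12 (0.67 to 1.57). In cells with a heat shock sentinel alone Egr1 stood at 119, 114 and 51.9 CPM, a log2 ratio of 0.29, -0.02 and 0.18. Egr1 was thus higher with a receptor sentinel in each library and moved less with the heat shock sentinel. Because the heat shock cells were those with Dnajb1, this split does not tell receptor signal from dissociation. Egr3 was farther apart, at 49.4, 19.3 and 29.9 CPM with a receptor sentinel against 4.08, 3.89 and 2.15 CPM with neither, from 30, 8 and 25 against 7, 5 and 4 UMIs. Egr2 stood at 31.3, 38.6 and 16.8 CPM against 8.73, 14.0 and 5.91 CPM. With Cd69 as the only receptor sentinel, which leaves out the Nr4a genes that differed between libraries, Egr1 still stood at 255, 297 and 138 CPM against 119, 124 and 52.2 CPM.

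Junb, Fos and Ier2 were also higher with a receptor sentinel. Junb stood at 655, 502 and 1515 CPM with a receptor sentinel, 383, 261 and 876 with neither, and 316, 175 and 1190 with a heat shock sentinel. Fos had log2 ratios over neither of 1.17, 0.70 and 1.17 with a receptor sentinel, the p53 AD/- interval including 0. Ier2 had 0.84, 0.84 and 0.87. Jund moved little, with log2 ratios of -0.11, 0.14 and 0.07, and stood at 446, 638 and 470 CPM with a receptor sentinel against 483, 580 and 448 CPM with neither. Along the heat shock sentinel no member was 2-fold apart in the same direction in each library. The log2 ratios there were -0.28, -0.58 and 0.44 for Junb, and -0.68, -0.95 and 0.59 for Ier2. Jun stood at 64.2, 6.73 and 64.9 CPM with a heat shock sentinel and at 62.9, 26.4 and 40.9 CPM with neither, and its p53 AD/- value was 1 UMI. What the cells met during preparation is not recorded, and the part of dissociation in these levels was not tested.

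**Figure D3:**
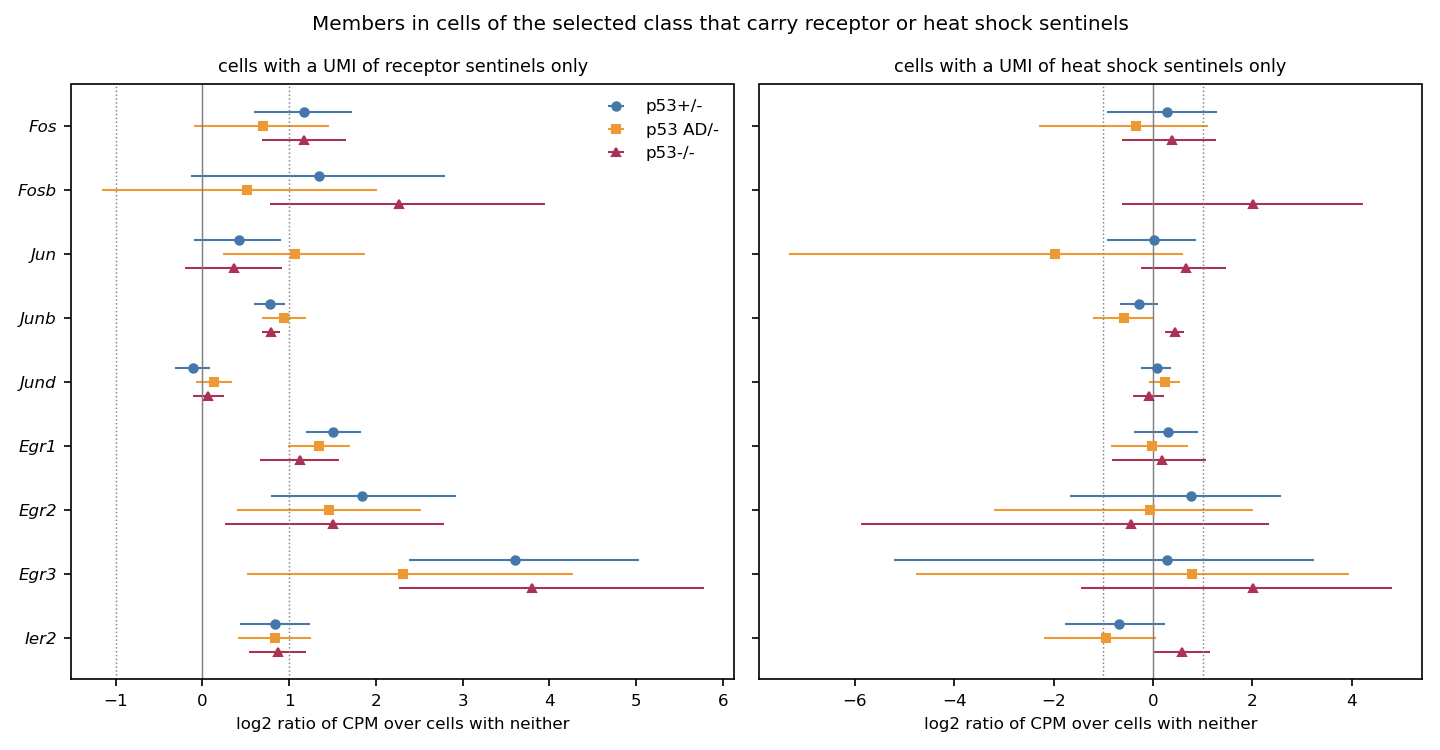
Log2 ratio of each member's CPM in selected-class cells with a receptor sentinel only, or a heat shock sentinel only, over cells with neither, at 1500 UMIs per cell in the 3 libraries, with 95% counting intervals. The points of Egr1, Egr2, Egr3, Junb, Fos and Ier2 lie above 0 with a receptor sentinel in each library, the heat shock values lie on both sides of 0, and the panels differ in the scale of their axes.

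In the quiescent class, 5.25%, 3.26% and 10.5% of thinned cells held a receptor sentinel alone and 11.3%, 12.8% and 12.2% a heat shock sentinel alone. The values of Egr1, Fos and Junb were again higher with a receptor sentinel. In p53 AD/- such cells were 3.26% of 2943, so its ratios rest on few cells. Egr1 had log2 ratios over neither of 1.90, 0.66 and 1.42 with a receptor sentinel and 0.55, 0.37 and -0.05 with a heat shock sentinel. Fos had 0.91, 1.58 and 1.44 and Junb 0.76, 0.67 and 0.97 with a receptor sentinel, whereas Jun had 0.12, -0.83 and 0.78. The p53-/- library thus held the largest share of quiescent cells with a receptor sentinel, and Nr4a1, an orphan receptor induced by receptor signalling, stood at 19.8, 5.75 and 81.7 CPM there, whereas Cd69, an early activation antigen, stood at 23.8, 24.1 and 21.7 CPM.

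Shares of cells with a UMI followed the levels. At 1500 UMIs per cell, 13.8%, 15.7% and 7.98% of selected cells held Egr1 (25.0%, 23.1% and 17.0% unthinned), against 1.16%, 1.46% and 1.67% of cycling cells. Egr2 was found in 2.18%, 2.67% and 1.28% of selected cells (5.75%, 6.22% and 3.14% unthinned). Cycling cells were deeper, with medians of 12799, 10448 and 11007 UMIs against 3752, 3016 and 3294 in selected cells. Egr2 was found in 0.0963% and 0.12% of thinned cycling cells of p53+/- and p53-/-. In p53 AD/- it was found in 0 of 751, which allows up to 0.399%. Without thinning the cycling share of Egr2 was 0.662%, 0.666% and 0.714%. Junb was found in 36.8%, 29.0% and 57.3% of selected cells and 16.0%, 12.5% and 29.8% of quiescent cells. At least 3 members were found together in 12.4%, 12.2% and 13.6% of selected cells and in 3.40%, 2.51% and 6.30% of quiescent cells.

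Egr1 was found more often in cells that held Egr2 or Egr3. Of thinned selected cells with Egr2 (38, 34 and 26 cells), 47.4%, 70.6% and 23.1% held Egr1, against 13.1%, 14.2% and 7.78% of those without Egr2. Of cells with Egr3 (33, 15 and 25), 54.5%, 60.0% and 28.0% held Egr1. Jund, by comparison, was found in 45.6%, 54.5% and 44.4% of cells with Egr1 and in 49.3%, 55.4% and 46.6% of cells without it. Of cells with Fos, 5.50%, 11.1% and 3.68% held Fosb, from 6, 7 and 5 cells, against 0.797%, 0.826% and 0.739% of cells without Fos.

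Within the selected class the members peaked in different clusters. Cluster 8, led by Tox, Cd5 and Ikzf2, had the most Egr1, at 264, 223 and 99.2 CPM, and the most Egr2, at 35.2, 41.1 and 19.6 CPM. Cluster 12, led by Ikzf2, Bcl2l11, Gadd45b, Nr4a1 and Cd69, genes of strong receptor signal, had the most Egr3 (45.5, 28.9 and 35.4 CPM), Junb (660, 494 and 1433 CPM) and Fos (71.9, 62.4 and 91.3 CPM) but only 108, 134 and 79.8 CPM of Egr1. Egr1 was thus not at its peak where Nr4a1 and Junb were. Cluster 5, led by Itm2a, Cd2 and Lef1, had little Jun (17.6, 12.8 and 17.6 CPM) beside 492, 382 and 1245 CPM of Junb, whereas cluster 8 had 95.7, 58.6 and 75.7 CPM of Jun.

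**Figure D4:**
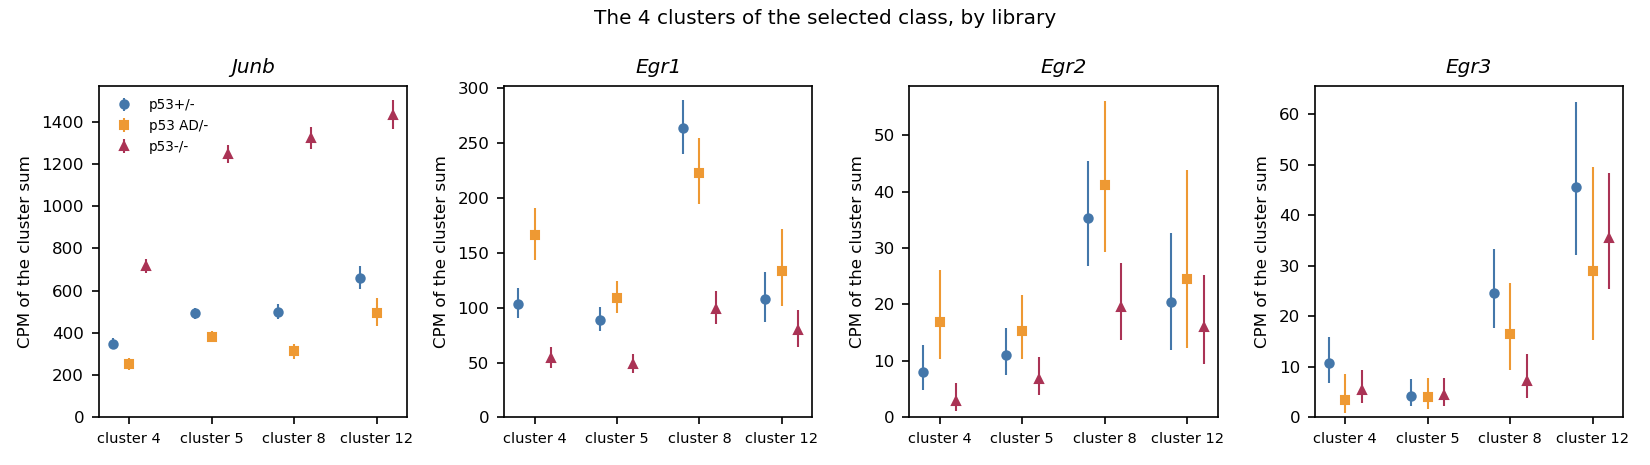
Level in CPM of Junb, Egr1, Egr2 and Egr3 in clusters 4, 5, 8 and 12 of the selected class in the 3 libraries, with 95% counting intervals. Egr1 and Egr2 are highest in cluster 8 and Egr3 and Junb in cluster 12, and p53-/- has the most Junb and the least Egr1 in each cluster.

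Between libraries, Junb and Egr1 went in opposite directions in p53-/-. Junb was higher in p53-/- than in p53+/- in each class, by 2.54-fold in quiescent cells (log2 1.35, 1.27 to 1.42) and 2.40-fold in selected cells (1.26, 1.21 to 1.32), with log2 ratios of 1.23 in mature, 1.28 in cycling and 0.92 in DN-like cells. It was higher in each of clusters 4, 5, 8 and 12 (1.03, 1.34, 1.40 and 1.12) and in quiescent clusters 0, 3 and 6, at 137, 131 and 178 CPM in p53+/- against 335, 245 and 434 CPM in p53-/-. The higher Junb was thus also seen within single clusters. In p53 AD/- Junb was lower than in p53+/-, with log2 ratios of -0.46 (-0.58 to -0.35) in quiescent and -0.45 (-0.53 to -0.36) in selected cells. The order of Junb, p53 AD/- under p53+/- under p53-/-, is also the order of the Malat1 share. In cells matched on Malat1 share (2152 quiescent and 908 selected cells per library) the log2 ratio of Junb in p53-/- over p53+/- was 1.44 and 1.31.

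Egr1 was lower in selected cells of p53-/- than of p53+/-, 0.490-fold (log2 -1.03, -1.18 to -0.88), and Egr2 (-0.77, -1.20 to -0.35) and Egr3 (-0.65, -1.08 to -0.22) were lower there too. Egr1 did not differ beyond counting error in quiescent cells (-0.22, -0.46 to 0.01) or in mature SP-like cells (-0.14, -0.43 to 0.15). By cluster, the log2 ratio of Egr1 was -0.93, -0.87, -1.41 and -0.44 in clusters 4, 5, 8 and 12, and the interval of the last just included 0 (-0.87 to 0.00). It stayed at -1.03 in Malat1-matched selected cells. Over all filtered cells together the libraries had 44.4, 47.1 and 43.7 CPM of Egr1, so the library sum did not show the lower level. That sum also holds cells outside the thymocyte classes. Among them was cluster 19, a small group led by MHC class II genes, with 309 CPM of Egr1 in p53+/- and 625 CPM in p53-/-. It is therefore not a measure of thymocytes alone. Genes known to lie downstream of EGR factors or of the receptor did not all follow: in selected cells Id3, an EGR-induced inhibitor of E proteins, stood at 308, 478 and 158 CPM, Nab2 at 82.4, 74.2 and 56.6 CPM, Cd69 at 196, 241 and 133 CPM and Cd5, a receptor-tuned inhibitor, at 488, 477 and 519 CPM, while Nr4a1 stood at 121, 61.0 and 233 CPM. Id3, Nab2 and Cd69 were thus lowest and Nr4a1 highest in p53-/-, the library with the least Egr1.

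Fos, Ier2, Jun and Jund stayed within 2-fold of p53+/- in quiescent, selected and mature cells of p53-/-. Fos was higher by 0.72 (0.52 to 0.92) on the log2 scale in quiescent cells, 0.39 in selected, 0.49 in mature and 0.81 in cycling cells. Ier2 was higher by 0.50 in quiescent, 0.28 in selected and 0.57 in mature cells. Jun was higher by 0.20 in quiescent and 0.64 in mature cells and stood at -0.33 (-0.54 to -0.12) in selected cells, so its direction depended on the class. Jund stood at 0.00 (-0.07 to 0.07) in selected cells. Fosb was lower in DN-like cells, at 43.4 against 95.9 CPM (-1.14, -1.52 to -0.77), and stood at -0.50 (-1.14 to 0.13) in quiescent cells. Of the 6 members with at least 100 UMIs over the pair, 1 (Junb) was at least 2-fold higher and 0 lower in quiescent cells of p53-/-, where 0.858% and 0.466% of all genes were. Of 9 in selected cells, 1 (Junb) was higher and 1 (Egr1) lower, where 0.601% and 0.365% of all genes were. The Egr1 call was lost, at -0.94 with under 5% mitochondrial UMIs, -0.97 with the receptor list also left out of clustering and -0.96 with all variable genes used for it.

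In p53 AD/- the AP-1 subunits Jun and Fosb were lower and Jund higher, in different classes. Jun was lower than in p53+/- in quiescent cells (24.3 against 50.9 CPM; log2 -1.07, -1.31 to -0.83) and in selected cells (29.97 against 55.3 CPM; -0.88, -1.17 to -0.60). It was lower in quiescent clusters 0, 1, 2 and 3, at 20.9, 23.6, 20.3 and 40.0 CPM against 56.8, 39.9, 47.6 and 57.5, and in cluster 6 stood at 26.1 CPM, from 5 UMIs, against 34.8. The intervals for Jun included 0 in mature SP-like (0.33, -0.20 to 0.85) and cycling cells (-0.16, -0.38 to 0.05). Fosb was lower in cycling cells, at 4.28 against 10.01 CPM (-1.23, -1.75 to -0.73), and in DN-like cells, at 17.7 against 95.9 CPM (-2.43, -3.25 to -1.71). In quiescent and selected cells Fosb stood at 0.15 (-0.48 to 0.77) and 0.07 (-0.56 to 0.68). Jund was higher by 0.47 (0.43 to 0.52) in quiescent, 0.36 in selected, 0.56 in mature and 0.58 in cycling cells, but not in DN-like cells (-0.07, -0.27 to 0.13). In Malat1-matched cells the log2 ratio of Jun was -0.95 in quiescent and -0.67 in selected cells. Egr3 was lower in selected cells (-0.80, -1.35 to -0.27), whereas Egr2 stood at 0.40 (0.01 to 0.79) and Egr1 at 0.15 (0.01 to 0.29).

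Of 6 members measured in quiescent cells, 0 were at least 2-fold higher and 1 (Jun) lower in p53 AD/- than in p53+/-, where 0.431% and 2.39% of all genes were. This Jun call was lost with matched Malat1 shares (-0.95) and at Leiden resolutions 0.5 (-0.97) and 2 (-0.99). Of 8 in selected cells, 0 were higher and 0 lower, where 0.395% and 1.68% of all genes were, and Jun passed at both resolutions (-1.01 and -1.02). Against p53-/-, 0 of 6 were higher and 2 lower in quiescent cells (Jun at -1.26 and Junb at -1.81), where 0.795% and 5.16% of all genes were. In selected cells 2 of 8 were higher (Egr1 at 1.18, Egr2 at 1.17) and 1 lower (Junb at -1.71), where 0.526% and 4.08% of all genes were. These comparisons share libraries, so they are not independent of each other.

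**Figure D5:**
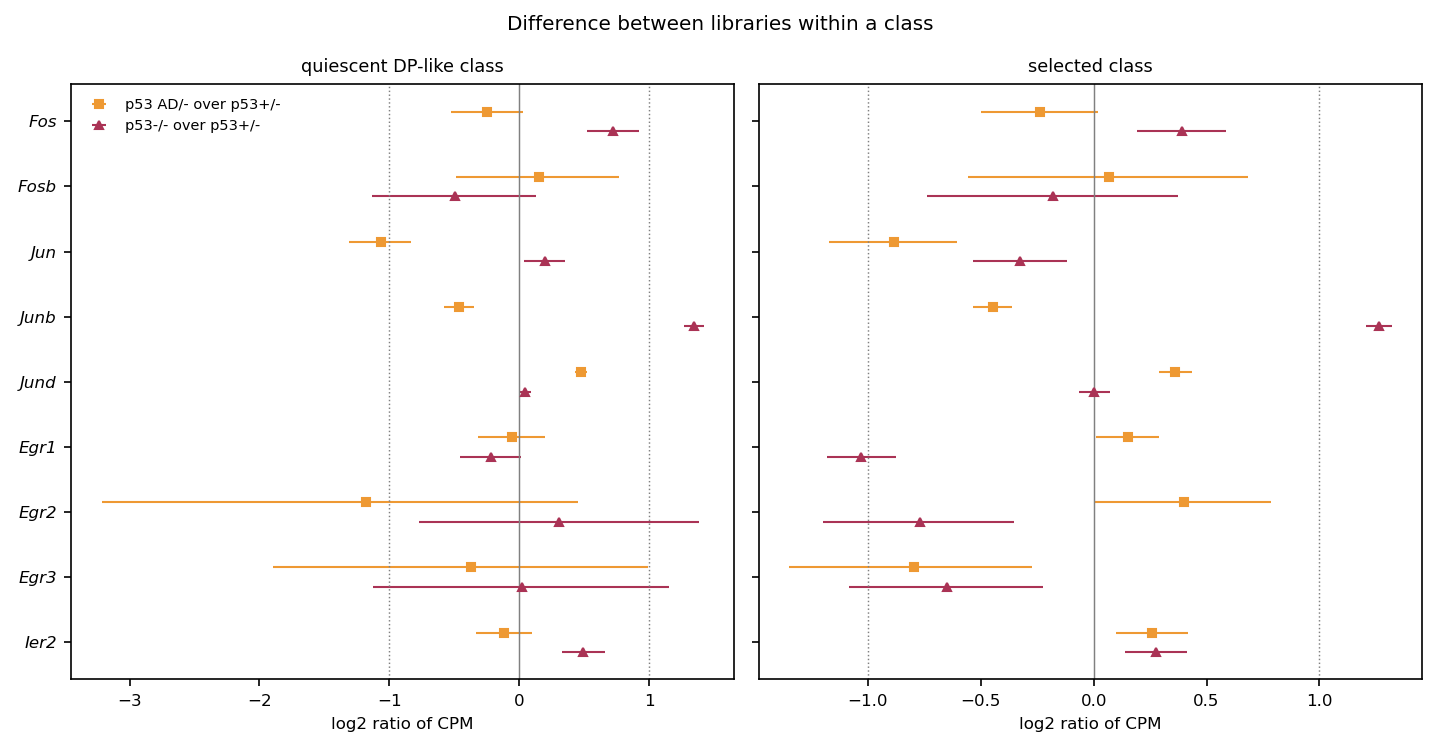
Log2 ratio of each member's CPM in p53 AD/- and in p53-/- over p53+/-, in quiescent (left) and selected (right) cells, with 95% counting intervals. Junb lies above 2-fold in p53-/- in both classes, Egr1 lies near -1 in p53-/- in selected cells, and Jun lies near -1 in p53 AD/- in both.

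Receptor response genes passed 2-fold between libraries in opposite directions. In quiescent cells of p53-/-, 4 of 29 measured receptor response genes were higher than in p53+/-, where 0.858% of all genes were, and 0 lower, led by Nr4a1 (2.05), Nr4a3 (1.90) and Dusp5 (1.76), a nuclear ERK phosphatase, while 0 of 27 dissociation genes were higher or lower. The largest of these were Tsc22d3 (-0.92), Ppp1r15a (0.91) and Dusp1 (0.81). Cluster 6, with Dusp5 among its leading genes, held 64.0% of quiescent cells in p53-/- against 10.5% in p53+/-. The receptor genes were not compared within single clusters, so make-up of the class and level are mixed here. In selected cells 2 of 31 receptor genes were higher, where 0.601% of all genes were, with Dusp5 (1.36), Ctla4 (1.15) and Id3 (-0.96) the largest by size, and 0 of 26 dissociation genes passed. In quiescent cells of p53 AD/-, 0 of 26 receptor genes were higher and 3 lower, where 2.39% of all genes were lower (Nr4a1 at -1.78, Ctla4 at -1.64, Nfatc1 at -1.28). Of 27 dissociation genes 1 was higher (Hsph1, 1.82) and 2 lower (Nfkbiz at -1.40, Cebpb at -1.26). In selected cells of p53 AD/-, 0 of 30 receptor genes passed. The 20 measured ERK genes gave 0 calls in quiescent cells in both comparisons. The medians of the dissociation list, 0.30 in quiescent and 0.26 in selected cells of p53-/-, stood beside 0.09 and 0.07 for all genes, and the part of cell preparation in the Junb difference was not tested.

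Atf3 (chromosome 1, 191170296 to 191218039), a stress-induced factor of the ATF family that is also a known p53 target, was almost absent from thymocytes. It gave 1, 1 and 3 UMIs in quiescent cells and 0, 2 and 0 in selected cells, where 0 UMIs allow 0.397 and 0.376 CPM. Most of its 33, 42 and 226 UMIs came from cluster 20, a dendritic or macrophage-like group of 50, 47 and 114 cells, with 21, 23 and 157 UMIs, or 37.0, 56.6 and 135 CPM (115 to 158 in p53-/-). The excess of Atf3 in all p53-/- cells, 4.20 against 0.724 CPM in p53+/-, was thus mostly counted in cluster 20, whose cells also number more there. Other members were high in the same groups: Fos stood at 268, 453 and 684 CPM in cluster 20 and Jun at 432, 415 and 1163 CPM in cluster 19, a smaller group of 24, 24 and 38 cells led by MHC class II genes, with Krt17, an epithelial keratin, also among its leading genes. RNA of such cells can reach thymocyte droplets. The 16 dendritic and macrophage markers summed to 185, 282 and 246 CPM in quiescent and 183, 248 and 224 CPM in selected cells, with 0 to 3 of them at 0, and their part in the Fos and Jun levels was not tested.

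Over 15 points, each 1 class of 1 library, the EGR genes were alike and so were Fos and Fosb, while the Jun genes were not. Pearson's r of log2(CPM + 10) was 0.967 for Egr1 and Egr2, 0.894 for Egr1 and Egr3, and 0.841 for Fos and Fosb. It was 0.27 for Jun and Junb, -0.43 for Jun and Jund, and -0.02 for Junb and Jund. Across families it was 0.789 for Fosb and Jun, 0.835 for Junb and Ier2, and -0.68 for Fos and Jund. The points share 3 libraries and their depths, so these are descriptions. Outside the selected class Egr2 was at most 5.28 CPM at these points, less than the 10 added. Its r values therefore rest mainly on the selected class of the 3 libraries. Among 8970 other genes, those most like Egr1 were Basp1 (0.948), Nab2 (0.938) and Tox (0.933), and those most like Egr2 were Lef1os1 (0.961), Nab2 (0.951) and Itm2a (0.949). Egr3 was most like Btla (0.971), Bcl2a1d (0.968) and Zbtb7b (0.963). Junb was most like Exoc6 (0.932), Rab8b (0.928) and Dusp1 (0.916), and Ier2 like Exoc6 (0.949), Cd53 (0.942) and Prdx6 (0.938). Jun was most like Fut8 (0.968), Ankrd27 (0.950) and Gpsm1 (0.943), and Fosb like Nmnat3 (0.959), Hdac4 (0.958) and Snx30 (0.942). Fos was most like Cluh (0.935), Snhg15 (0.927) and Pdxk (0.924), and Jund like Scp2 (0.960), Hsdl2 (0.939) and Smpd1 (0.930).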

How the data were processed

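The deposited values are raw counts of UMIs per gene and barcode, made with Cell Ranger 4.0.0 on GRCm38 per the submitters' processing notes; chemistry, annotation and the use of strand are not stated. Libraries were grouped by their genotype label. The members and all gene lists were chosen with earlier results of these data known. Cells with fewer than 500 genes or 10% or more mitochondrial UMIs were left out. The 3 libraries were clustered together in scanpy 1.11.5 (leidenalg 0.10.2, Leiden resolution 1, seed 1), leaving the members and dissociation genes out of the clustering genes, and clusters were named from markers. UMIs were summed by class and library and divided by the class total (CPM), with exact Poisson intervals. Ratios have exact conditional binomial intervals and shares exact Clopper-Pearson intervals, all at 95% and for counting error only. A gene counted as higher or lower at 2-fold or more with at least 100 UMIs over the pair; the limit for 0 counts is 3 counts. Library totals were 46498800, 27638820 and 54164425 UMIs before filtering. All members were named, with the 3 genes of each list with the largest log2 ratio and the 3 most like each member with at least 500 UMIs; further genes (Cd5, Cd69, Id3, Nab2, Nr4a1 and Dnajb1 by library) were named after their values were seen. Gene positions are from GENCODE M21 on GRCm38. Alternatives were other clustering settings, filters, thinning, matched Malat1 shares and edgeR's TMM factors (edgeR 4.0.16). Each genotype has 1 library, so nothing was tested between genotypes.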

Additional observations from a re-analysis of the deposited data

How the results depend on the processing

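No paired analysis was possible because each genotype has 1 library. The 12 ratios of selected over quiescent cells past 2-fold kept their direction and stayed past 2-fold in all 120 values under the alternatives run. Of the 9 ratios between libraries past 2-fold, none of 108 values changed sign and 14 fell under 2-fold. Junb in p53-/- over p53+/- ranged from 1.22 to 1.44 (log2) in quiescent and 1.19 to 1.36 in selected cells. Egr1 in p53-/- over p53+/- in selected cells ranged from -1.11 to -0.02, the last being all filtered cells together, and Jun in p53 AD/- over p53+/- in quiescent cells from -1.12 to -0.38, the last again all cells.

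Members counted past 2-fold moved where a ratio lay near it. For p53 AD/- over p53+/- the count in quiescent cells went from 1 to 0 at Leiden resolutions 0.5 and 2, with matched Malat1 shares and with all filtered cells, and in selected cells from 0 to 1 at both resolutions and with the mean over cells of CPM. For p53-/- over p53+/- it went from 1 to 2 in quiescent cells with all filtered cells, and from 2 to 1 in selected cells with under 5% mitochondrial UMIs, with the receptor list also left out of clustering and with all variable genes. For p53 AD/- over p53-/- it went from 2 to 4 with all filtered cells in place of quiescent ones. Of the sentinel ratios past 2-fold, 10 of 45 values fell under 2-fold and 1 changed sign: Egr2 over neither in quiescent p53+/- cells was 2.17, from 2 and 7 UMIs, and -0.70 without thinning. The causes were not tested. Depth limits Egr2, Egr3 and Fosb in quiescent cells and Atf3 in all thymocytes.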

Other observations

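Small groups outside the main thymocyte classes held high levels of several members, from few cells. In cluster 15, a stromal-like group of 11, 9 and 15 cells in p53+/-, p53 AD/- and p53-/-, Jun stood at 802, 475 and 2253 CPM and Fos at 308, 146 and 1668 CPM. In cluster 18, an unnamed group of 23, 27 and 62 cells with B cell genes, Egr3 gave 23, 0 and 52 UMIs and Fosb 62, 11 and 63 UMIs. Egr2 stood there at 43.7 CPM in p53-/-, above its level in the selected class of that library. In cluster 14, an unnamed group of 35, 27 and 90 cells led by B2m, Icos, Junb and Maf, Junb stood at 622, 732 and 1078 CPM and Fos at 153, 105 and 106 CPM. Genes of a cluster's own cells describe that cluster and were not tested.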
